A study of Mustela putorius furo and Mus musculus with 4 samples.

Results

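The interferon response genes compared here were 46 symbols, from receptors to antiviral effectors, and a member was used where a symbol of the same spelling, regardless of case, was listed in both species' files. This left 38 of the 46 members, among 13373 symbols shared by ferret and mouse. The data were poly(A)-selected RNA-seq of primary astrocytes from the cerebral cortex, in 2 ferret and 2 mouse libraries. Ferret cultures came from sable ferrets at P1 and mouse cultures from wild-type ICR mice at P1 to P3. Cells of both species were grown as mixed cultures for 14 days in medium with 10% fetal bovine serum, shaken to remove loosely attached cells and plated again. From day 3 after that plating the medium held no serum but the growth factor HB-EGF and other supplements, and RNA was harvested on day 7. Neither the labels nor the methods name an interferon or a virus as added, and whether the cultures met one unrecorded was not tested. The comparison asks how the expression of these genes, with no such stimulus named, differed between ferret and mouse astrocytes. Ifi44l is set against the rest.

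Interferons are secreted proteins that warn cells of infection. Type I interferon binds IFNAR1 and IFNAR2 and interferon gamma binds IFNGR1 and IFNGR2, and kinases bound to these receptors then phosphorylate STAT proteins. STAT2 and IRF9 are subunits of the complex ISGF3, which switches on a broad set of interferon-stimulated genes that sense foreign RNA, modify proteins or block viral replication. Astrocytes respond to interferon in the infected or injured brain, and a low level of many of these genes is present without infection.

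Expression is given as FPKM, fragments per kilobase of exon scaled by the mapped reads of the library, so levels of different genes are compared per length. Differences are ferret minus mouse on the log2(FPKM + 1) scale, which understates the change of genes with low values. They were tested with limma over 10204 genes with a mean of at least 1 FPKM in at least one species. A gene was called at an adjusted p under 0.05 with an absolute log2 difference over 1. Each species was mapped to its own genome and gene models, so a species difference cannot be told apart from a difference in mapping or annotation. The deposited files give FPKM without read counts, and the counts that the study lists in its supplement were not analysed here, so the depth behind each value was not examined. Nothing in the labels or methods says that the duplicates came from separate animals or cultures, so the adjusted p-values measure only the spread between libraries, which may be technical. The duplicates differed by a median of 0.08 in ferret and 0.06 in mouse on the log2 scale over all tested genes. The median difference over all tested genes was -0.35, with quartiles of -1.18 and 0.42, so differences of members are to be read against that shift.

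Because the values of 2 members rest on difficult gene models, their mouse models were examined in the GENCODE annotation of GRCm38, the build of the mouse files in another annotation release. Mouse Ifi44l was annotated at chr3:151758737-151762892 on the minus strand, with 1 transcript, 1376 exonic bases and a coding sequence of 469 bases, beside Ifi44 at chr3:151730922-151749960 on the same strand, with 6129 exonic bases and a coding sequence of 1266 bases. The Ifi44l model carried the tag for a reference genome error, which was the case for 1 of the 46 members and for 13 of 55450 genes in the annotation. A stretch of the aligned coding sequences is printed to show how far these neighbours have diverged in mouse, with the bases that differ in capitals.
Ifi44, coding bases 874 to 993: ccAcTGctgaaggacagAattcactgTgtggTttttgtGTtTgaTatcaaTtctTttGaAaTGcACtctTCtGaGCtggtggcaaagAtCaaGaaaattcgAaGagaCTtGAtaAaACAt
Ifi44l, coding bases 56 to 175: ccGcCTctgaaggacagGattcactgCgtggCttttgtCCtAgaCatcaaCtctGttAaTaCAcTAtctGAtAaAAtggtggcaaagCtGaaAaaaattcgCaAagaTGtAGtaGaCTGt
These 120 bases differed at 36 positions, and the identity over 429 aligned coding bases was 65.7%. No window of the read length was shared between the transcripts of Ifi44l and any other gene. By contrast, mouse Ifit3 shared 31.3% of its windows of that length with its copy Ifit3b, and the start of their coding sequences is printed because reads from it could be split between them.
Ifit3, coding bases 1 to 120: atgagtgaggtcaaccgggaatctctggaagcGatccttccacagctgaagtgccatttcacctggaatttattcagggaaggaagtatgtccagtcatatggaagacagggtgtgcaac
Ifit3b, coding bases 1 to 120: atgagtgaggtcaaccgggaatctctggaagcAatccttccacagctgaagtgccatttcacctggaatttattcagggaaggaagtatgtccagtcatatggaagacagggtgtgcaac
The capitals mark the only difference in this stretch, and the identity was 99.1% over 1209 coding bases, so the mouse value of Ifit3 is uncertain.

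More interferon response genes were called lower than higher in ferret against mouse astrocytes, and those called higher were antiviral effectors led by Ifi44l. Of the 38 shared members, 37 passed the filter on low values, and Rsad2, which encodes the antiviral enzyme viperin, did not. Of the 37, 3 were called higher in ferret (8.11%, against 13.1% of all tested genes) and 17 were called lower (45.9%, against 30.1% of all tested genes). Together these 20 compare with 43.2% of all tested genes called in either direction, and the other 17 members were not called. Without Ifi44l, which was known beforehand to be high in ferret, 2 of 36 were called higher (5.56%) and 17 lower (47.2%). With the adjusted p alone, 10 members were higher, against 32.4% of all tested genes, and 25 were lower, against 56.2%. The libraries of the species did not overlap for 36 of the 38 shared members, with ferret above in 10 (35.1% of all tested genes) and mouse above in 26 (59.0% of all tested genes). Only Irf1 and Stat2 overlapped. The median member difference was -0.92, and -0.93 without Ifi44l. When the libraries were rescaled to equal sums, which brought the median of all tested genes to -0.00, 4 members were called higher (19.3% of all tested genes) and 15 lower (21.7% of all tested genes), and the member median was -0.61.

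The cultures differed in cell type markers beside these genes. Gfap, the astrocyte intermediate filament, was high in all 4 libraries, at 1481 and 1522 FPKM in ferret and 1429 and 1546 FPKM in mouse. Of 13 astrocyte markers 8 were called lower in ferret (61.5%, against 30.1% of all tested genes) and 1 higher (7.69%, against 13.1%). After rescaling to equal sums, 6 were called lower and 2 higher, against 21.7% and 19.3% of all tested genes. All 16 shared microglial markers were called lower in ferret, with a sum of 8.07 to 9.08 FPKM in ferret and 923 to 945 FPKM in mouse, 12 of 16 under 1 FPKM in both ferret libraries and Cx3cr1 at 0 there. All 9 shared markers of meningeal fibroblasts were called lower too, with sums of 108 to 123 FPKM against 1613 to 1631 FPKM. The endothelial gene Cdh5 was listed at 0 in ferret and at 22.0 and 22.5 FPKM in mouse. Tek had a mouse mean of 1.34 FPKM, and Pecam1, Kdr, Cldn5 and Emcn, also endothelial, had means under 1 FPKM in both species. Of 7 oligodendrocyte lineage markers, 3 were called higher in ferret (42.9%, against 13.1% of all tested genes) and none lower (against 30.1%). Differences were positive for 5 and negative for Olig2 (-0.82) and Cspg4 (-0.47). Of 2 neuronal markers, Syt1 was called higher, and Map2 (-0.68) was not called. Olig1 and Stmn2, with means of 112 and 125 FPKM in mouse, had no matched ferret row. In such bulk samples, fewer cells of a type and less RNA per cell cannot be told apart. By immunostaining, the paper counted mostly astrocytes in both species, with a larger share of microglia in mouse and neurons only in ferret. Those stained cultures were kept in serum, unlike the ones sequenced. The part of these cell types in the lower interferon response genes was not tested.

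The members' summed FPKM was lower in both ferret libraries than in either mouse library, while its share of all shared FPKM overlapped. In ferret, the 38 members added up to 349.0 FPKM in replicate 1 and 349.1 FPKM in replicate 2. In mouse, they added up to 501.9 and 432.0 FPKM. As a share of the FPKM of all shared symbols this was 0.153% and 0.148% in ferret and 0.167% and 0.140% in mouse. The ferret shares thus lay between those of the mouse libraries. Ifi44l alone made up 14.5% and 12.9% of the members' sum in ferret, and 0.0143% and 0.00924% in mouse. Without it, the share was 0.131% and 0.128% in ferret, below both mouse libraries. This gene was known beforehand to be high in ferret and near 0 in mouse. Leaving it out could therefore only lower the ferret share against mouse. The members' median level was 3.67 and 3.75 FPKM in ferret and 8.89 and 7.72 FPKM in mouse. The median of all shared symbols was also lower in ferret, at 4.75 and 4.83 FPKM, than in mouse, at 6.58 and 6.64 FPKM.

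**Figure D1:**
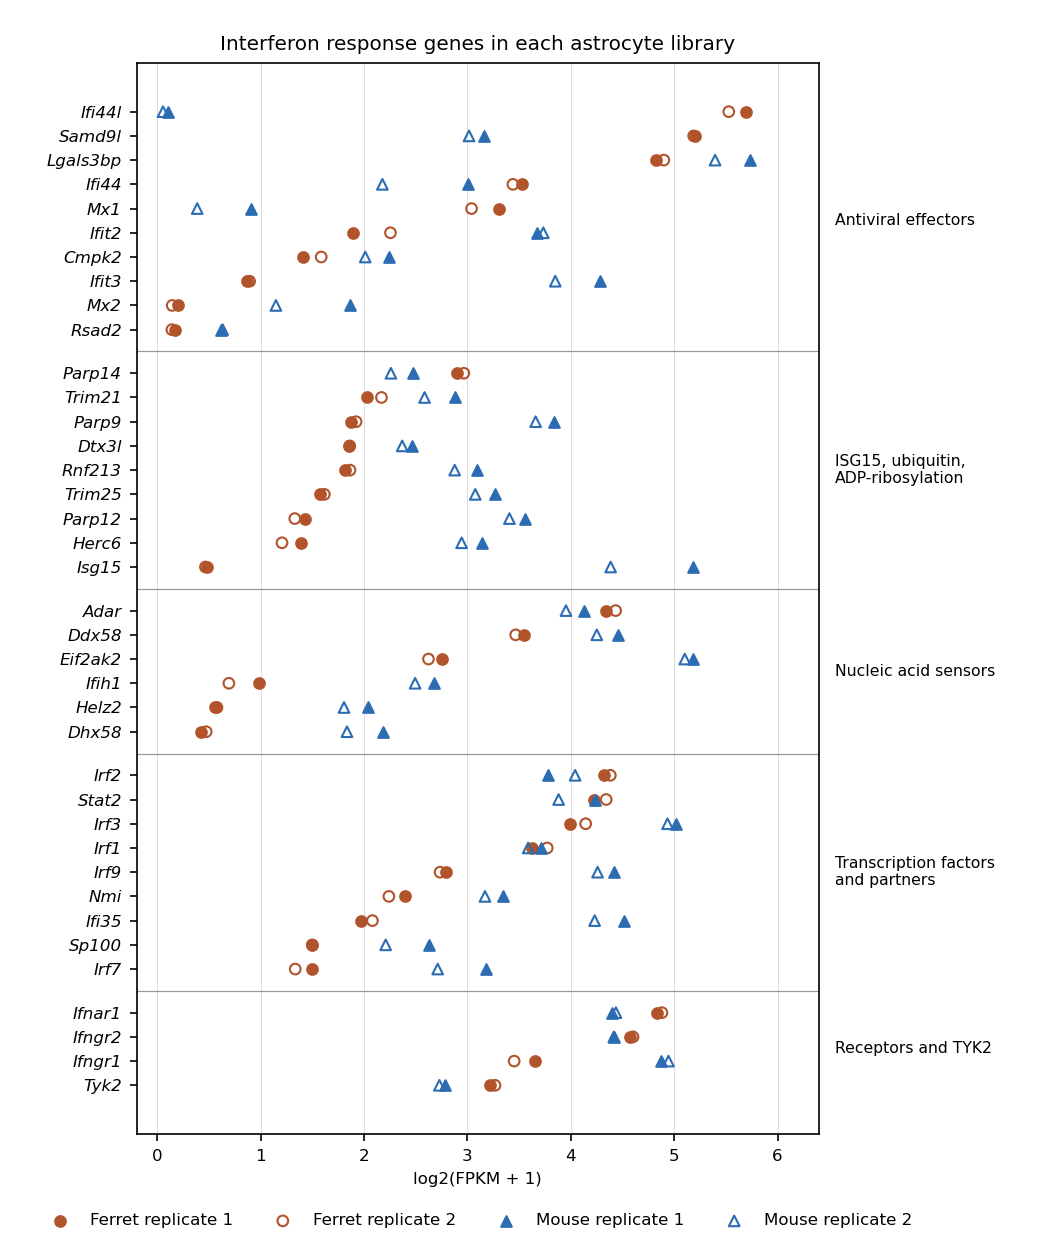
Expression of the 38 shared interferon response genes in each library, as log2(FPKM + 1), grouped by role and ordered by the ferret mean within a role. Brown circles are ferret and blue triangles are mouse, filled for replicate 1 and open for replicate 2. Ifi44l is the highest member in ferret and the lowest in mouse, and most members of the sensor and ISG15 groups lie higher in mouse.

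The matched receptor chains were expressed in both species. With Tyk2, 1 of 4 shared members of this group was called lower in ferret (25%, against 30.1% of all tested genes) and none higher (against 13.1%). Ifnar1, a chain of the type I interferon receptor, was at 27.6 and 28.5 FPKM in ferret and 20.1 and 20.6 FPKM in mouse. Its difference was 0.44 ± 0.06 (SE; adjusted p = 6.35e-05), above the spread between duplicates but under the size needed for a call. Ifngr1, the ligand-binding chain of the interferon gamma receptor, was at 11.5 and 9.94 FPKM in ferret and 28.2 and 29.8 FPKM in mouse. It was called lower in ferret, with a difference of -1.36 ± 0.08 (SE; adjusted p = 8.91e-08). When the libraries were rescaled to equal sums its difference was -0.99, and the call was lost. Ifngr2, the signalling chain of the same receptor, was at 22.8 and 23.3 FPKM in ferret and 20.4 and 20.3 FPKM in mouse. Its difference was 0.17, with a 95% interval of 0.03 to 0.30 (adjusted p = 0.0229). The chains of the gamma receptor thus stood in opposite order, with Ifngr2 above Ifngr1 in ferret and Ifngr1 above Ifngr2 in mouse, in each library. Tyk2, a kinase bound to IFNAR1, was at 8.31 and 8.62 FPKM in ferret and 5.87 and 5.63 FPKM in mouse, a difference of 0.49 that was not called. Ifnar2 was at 36.3 and 36.6 FPKM in mouse and had no matched ferret row.

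Among 9 transcription factors and their partners, 3 were called lower in ferret (33.3%, near the 30.1% of all tested genes), none was called higher (13.1% of all tested genes), and the median difference was -0.92. Of the ISGF3 subunits among the members, Irf9 was called and Stat2 was not. Stat2 was at 17.7 and 19.3 FPKM in ferret and 17.8 and 13.7 FPKM in mouse. The groups overlapped, and the difference was 0.23, with a 95% interval of -0.01 to 0.47 (adjusted p = 0.0702). Irf9, the DNA-binding subunit, was at 5.92 and 5.66 FPKM in ferret and 20.3 and 18.1 FPKM in mouse. It was called lower in ferret by -1.57 ± 0.08 (SE; adjusted p = 2.31e-08).

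Irf7, which amplifies type I interferon production, was at 1.82 and 1.52 FPKM in ferret and 8.04 and 5.56 FPKM in mouse and was called lower (-1.53). Irf3, which starts that production and is present without interferon, was at 14.9 and 16.7 FPKM in ferret and 31.4 and 29.6 FPKM in mouse. Its difference of -0.91 was not called, although the groups did not overlap. Ifi35 was called lower (-2.35), with 2.92 and 3.23 FPKM in ferret and 21.9 and 17.8 FPKM in mouse, while its binding partner Nmi (-0.94) and the nuclear body protein Sp100 (-0.92) were just short of the call. Both were called when mouse replicate 2 was left out, at -1.03 for Nmi and -1.13 for Sp100, and with a pseudocount of 0.1, at -1.08 and -1.21. Nmi was also called without ferret replicate 1, at -1.02. Irf1, an activator, had a difference of 0.04 with a 95% interval of -0.13 to 0.22, and its antagonist Irf2 one of 0.44. Irf1, Ifngr2 and Stat2 were the members with a difference under 0.3 in size.

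Among 6 shared sensors and effectors of foreign RNA, 4 were called lower in ferret (66.7%, against 30.1% of all tested genes) and none higher (against 13.1%), with a median difference of -1.46. Eif2ak2 encodes PKR, a kinase that stops translation upon binding double-stranded RNA. It was at 5.73 and 5.16 FPKM in ferret and 35.4 and 33.3 FPKM in mouse, the second highest shared member there. Its difference was -2.46 ± 0.07 (SE; adjusted p = 7.64e-10). Ifih1, which encodes the RNA sensor MDA5, was at 0.977 and 0.617 FPKM in ferret and 5.38 and 4.63 FPKM in mouse and was called lower (-1.75). Dhx58, which encodes the related regulator LGP2, and Helz2, a helicase, were also called lower, by -1.56 and -1.35. Ddx58, which encodes the sensor RIG-I, was at 10.7 and 10.1 FPKM in ferret and 20.9 and 18.04 FPKM in mouse, and its difference of -0.85 was not called. Of the RIG-I-like receptors, RIG-I was therefore above MDA5 and LGP2 in all 4 libraries. Adar, which edits double-stranded RNA, had a difference of 0.35 that was not called. In the mouse annotation 1365 of its exonic bases overlapped Chrnb2 on the other strand, and whether the quantification used strand is not given in the sources used here.

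The group around ISG15, ubiquitin and ADP-ribosylation had 6 of 9 shared members called lower in ferret (66.7%, against 30.1% of all tested genes) and none higher (against 13.1%), with a median difference of -1.57. Isg15, a ubiquitin-like protein and among the most strongly induced interferon targets, was at 0.394 and 0.382 FPKM in ferret and 35.3 and 19.9 FPKM in mouse. It had the most negative difference of all members, -4.31 ± 0.20 (SE; adjusted p = 1.77e-08). Mouse replicate 1 was 1.78 times mouse replicate 2 for this gene, while every mouse value stood far above both ferret values. The ubiquitin ligase Trim25, which acts on RIG-I, was called lower (-1.57), as were Herc6, the mouse ligase for ISG15 (-1.74), and the large ligase Rnf213 (-1.14). Rnf213 lost its call after rescaling to equal sums (-0.83), and 10.3% of the read-length windows of mouse Herc6 were shared with an overlapping gene. Of the ADP-ribosyltransferase family, Parp12 (-2.10) and Parp9 (-1.85) were called lower, whereas Parp14 had a difference of 0.57 and was not called. Dtx3l, the ubiquitin ligase partner of PARP9, had a smaller difference of -0.56 and was not called, like Trim21 (-0.64), a ligase that binds antibody-coated virus. Parp9 and Dtx3l face each other on mouse chromosome 16 and overlapped by 458 exonic bases on opposite strands.

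The antiviral effectors had members called in both directions, with 3 higher (33.3%, against 13.1% of all tested genes) and 3 lower (33.3%, near the 30.1% of all tested genes) among 9 tested, and a median difference of -0.63. The 3 higher include Ifi44l, whose call was known in advance, so the share called higher is not independent of that choice. Ifi44l, an interferon-stimulated gene of the family of Ifi44, was at 50.6 and 45.1 FPKM in ferret. It was at 0.0717 and 0.0399 FPKM in mouse. It thus ranked 1 of 38 in both ferret libraries and 38 of 38 in both mouse libraries. Its difference was 5.53 ± 0.08 (SE; adjusted p = 1.6e-11), the largest of the members and number 14 from the top of all 10204 tested genes. Because this gene was already known to be high in these ferret libraries and near 0 in these mouse libraries, the value is a description. The mouse value rests on the gene model with the reference error tag described above, and its part in the difference was not tested.

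Ifi44, the neighbouring paralog in mouse, did not show a difference of that size. It was at 10.6 and 9.85 FPKM in ferret and 7.02 and 3.53 FPKM in mouse. The groups did not overlap, and the difference of 0.90 ± 0.21 (SE; adjusted p = 0.0023) was not called. It rested on the mouse library used, being 1.31 and called without mouse replicate 1, and 0.48 without mouse replicate 2. In ferret, Ifi44l was 4.79 and 4.58 times Ifi44, and in mouse, Ifi44 was 97.9 and 88.3 times Ifi44l. Levels under these symbols therefore stood in opposite order in the species. The RefSeq table of another ferret assembly held the symbol Ifi44l but not Ifi44, and ferret gene positions were not examined. Whether the ferret rows are the counterparts of the mouse pair was not tested.

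Samd9l and Mx1 were the other members called higher. Samd9l, a restriction factor that blocks translation of poxvirus-infected cells, was at 35.7 and 35.5 FPKM in ferret and 7.93 and 7.09 FPKM in mouse. Its difference was 2.11 ± 0.07 (SE; adjusted p = 1.76e-09), and the ferret mean was 4.74 times the mouse mean. Mx1, a dynamin-like GTPase that blocks virus ribonucleoproteins, was at 8.86 and 7.22 FPKM in ferret and 0.874 and 0.308 FPKM in mouse. Its difference was 2.52 ± 0.15 (SE; adjusted p = 1.4e-07). Its paralog Mx2 went the other way, with 0.151 and 0.106 FPKM in ferret and 2.65 and 1.22 FPKM in mouse, a difference of -1.33 ± 0.18 (SE; adjusted p = 7.07e-05). Without mouse replicate 1 the difference of Mx2 was -0.97 and it was no longer called. Mouse Mx1 (chr16:97447035-97462907, minus strand) and Mx2 (chr16:97535308-97560900, plus strand) were 81.1% identical over 1821 aligned coding bases. They shared 0.905% and 1.10% of their windows, and Mx2 was typed as a polymorphic pseudogene. Laboratory mouse strains commonly carry defective Mx genes, and the ICR alleles were not examined here. Genes of the same name in ferret and mouse Mx families need not be direct counterparts.

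Ifit2 and Ifit3, which encode RNA-binding blockers of viral translation, were the other effectors called lower. Ifit3 was at 0.827 and 0.858 FPKM in ferret and 18.5 and 13.4 FPKM in mouse, a difference of -3.19 ± 0.12 (SE; adjusted p = 5.48e-09). Ifit2 was at 2.71 and 3.78 FPKM in ferret and 11.8 and 12.3 FPKM in mouse (-1.63). Lgals3bp, a secreted glycoprotein, was the highest shared member in mouse, at 52.0 and 41.1 FPKM, and was at 27.4 and 28.8 FPKM in ferret, a difference of -0.70 that was not called. Cmpk2, a nucleotide kinase, differed by -0.63 and was not called. Its chromosomal neighbour Rsad2, below the filter, was at 0.129 and 0.104 FPKM in ferret and 0.538 and 0.551 FPKM in mouse.

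**Figure D2:**
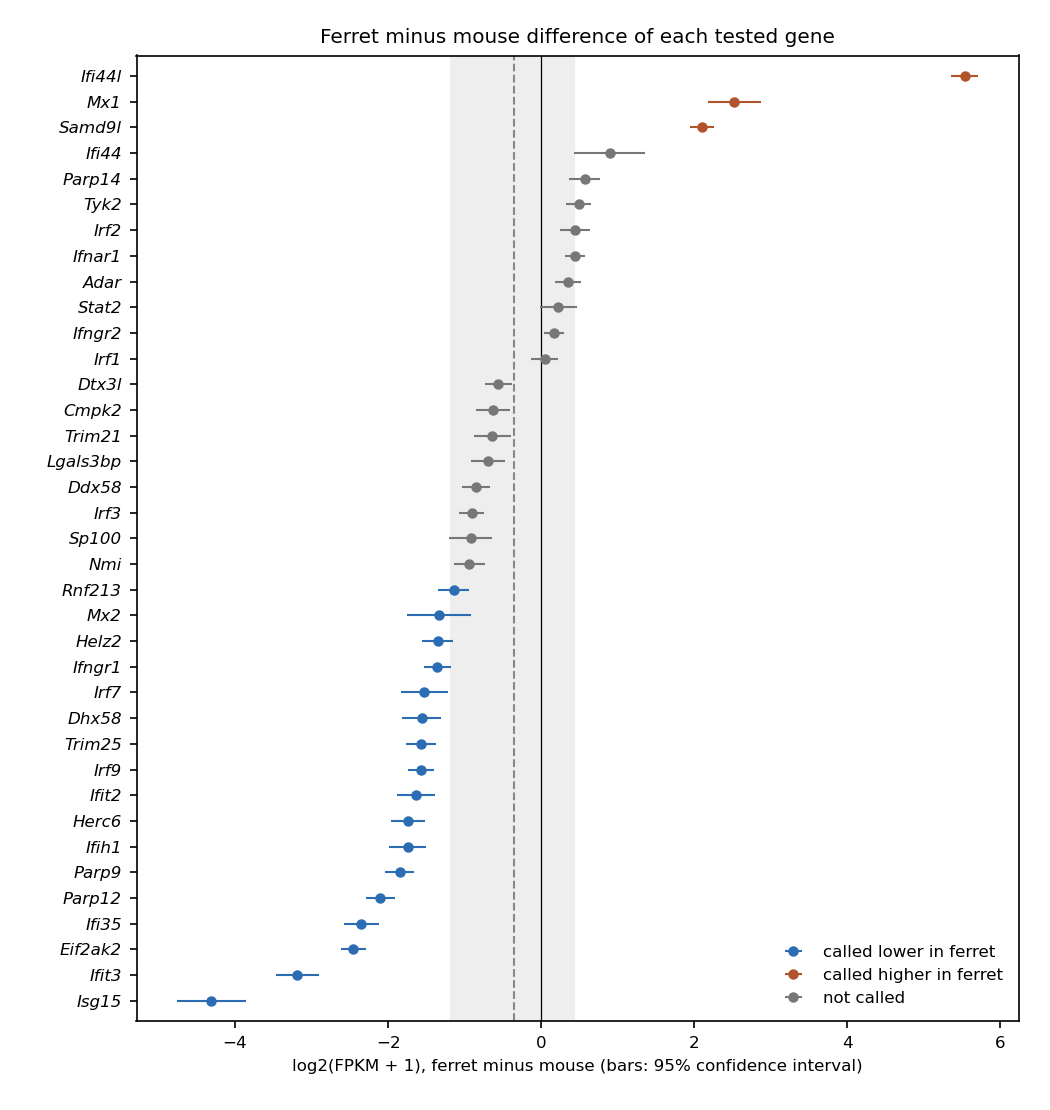
Difference between ferret and mouse astrocytes for the 37 tested members, in log2(FPKM + 1), with limma 95% confidence intervals (n = 2 libraries per species). The dashed line is the median of all tested genes (-0.35) and the grey band their quartiles. Ifi44l (5.53), Mx1 (2.52) and Samd9l (2.11) lie farthest to the right, and Isg15 (-4.31) and Ifit3 (-3.19) farthest to the left.

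The order of the members by level was only partly shared. The most abundant shared members were Ifi44l, Samd9l and Lgals3bp in ferret and Lgals3bp, Eif2ak2 and Irf3 in mouse. The ferret means of Lgals3bp and Ifnar1, 28.1 and 28.0 FPKM, differed by less than the spread between duplicates. In mouse, the means of Eif2ak2 and Irf3 were 34.4 and 30.5 FPKM, and their duplicates did not overlap. The place of Irf3 was not secure, because its duplicates overlapped those of Ifngr1 (mean 29.0 FPKM) and Isg15 (mean 27.6 FPKM). The rank correlation of the species means across the 38 members was 0.416, and 0.534 without Ifi44l, against 0.675 across all tested genes. These are descriptions over genes, which are not independent and share 4 libraries. Under 1 FPKM were 7 members in each ferret library and 3 in each mouse library, while 13 and 11 members reached 10 FPKM in ferret and 18 and 17 in mouse. When a gene was classed as specific to a species by a level under 1 FPKM in the other species among those that passed the filter, Ifi44l and Mx1 were specific to ferret. Isg15, Ifit3, Ifih1, Dhx58, Helz2 and Mx2 were specific to mouse. These classes held 5.69% and 10.2% of all tested genes.

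**Figure D3:**
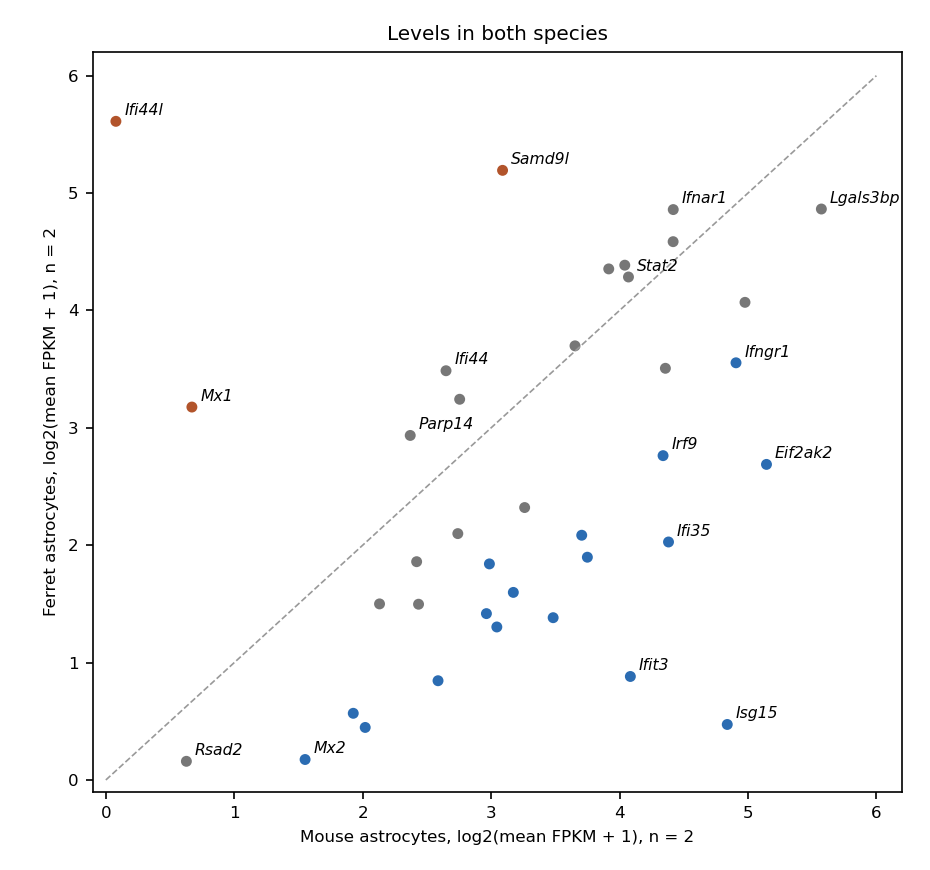
Mean level of each shared member in mouse (horizontal) and ferret (vertical) astrocytes, as log2(mean FPKM + 1), n = 2 libraries per species. Brown points were called higher in ferret, blue points called lower and grey points not called or not tested, and the dashed line marks equal levels. Ifi44l stands alone at the upper left, and Isg15 lies opposite at the lower right.

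The other 8 members had no row of that symbol in the ferret files and were compared within mouse only. Ifi27, a mitochondrial interferon-induced protein, was the highest of all 46 members in mouse, at 159 and 134 FPKM. Bst2, which tethers budding virus to the cell, followed at 98.7 and 62.1 FPKM. Xaf1, an apoptosis-promoting factor, was at 20.99 and 15.8 FPKM, and the GTPase Gbp2 at 19.6 and 16.0 FPKM. Ifit1, which binds viral RNA caps, was at 13.7 and 7.93 FPKM, Usp18, which removes ISG15 and restrains IFNAR signalling, at 7.35 and 4.13 FPKM, and the Z-nucleic acid sensor Zbp1 at 4.19 and 2.79 FPKM. Of these 8, 4 symbols (Ifnar2, Zbp1, Usp18 and Bst2) were found in the RefSeq table of another ferret assembly, so the missing match does not show that ferret lacks the gene.

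The mouse duplicates differed from each other in the interferon-stimulated members and hardly in the receptors. Mouse replicate 1 was above mouse replicate 2 in 40 of 46 members, against 40.3% of all tested genes. By more than 0.3 on the log2 scale, a limit chosen after the values were seen, replicate 1 was higher in 15 of 46 members (32.6%, against 1.24% of all tested genes and 2.56% of all 14464 mouse symbols with a mean of at least 1 FPKM) and replicate 2 in none (1.06% of all tested genes). These were Mx1, Mx2, Ifi44, Ifit1, Ifit3, Bst2, Xaf1, Lgals3bp, Isg15, Usp18, Stat2, Irf7, Sp100, Dhx58 and Zbp1. The ratio of replicate 1 to replicate 2 was 2.84 for Mx1, 2.18 for Mx2, 1.99 for Ifi44 and 1.78 for Isg15. The median gap was 0.33 for effectors, 0.20 for sensors, 0.20 for the ISG15 group and 0.18 for transcription factors, and -0.01 for receptors and Tyk2, none of which passed the limit. Of 49 other interferon-stimulated genes in the mouse files, 9 passed it, against none of 18 other signalling genes, none of 17 microglial markers and none of 13 astrocyte markers. Of 9 oligodendrocyte lineage markers 1 passed it, the myelin gene Mbp, at 2.95 and 1.78 FPKM. All 13 astrocyte markers were slightly lower in replicate 1, with a median gap of -0.09. The ferret duplicates showed no such split, with replicate 1 above in 16 of 38 members (38.4% of all tested genes), and a median gap of -0.02. None passed the limit in ferret replicate 1 (1.57% of all tested genes), and only Ifit2 did in replicate 2 (1.21%). Of 17 ferret microglial markers, 3 with low values passed it in replicate 1 (Trem2, Fcer1g and Tyrobp). The calls that changed when either mouse library was left out are named with their genes above.

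**Figure D4:**
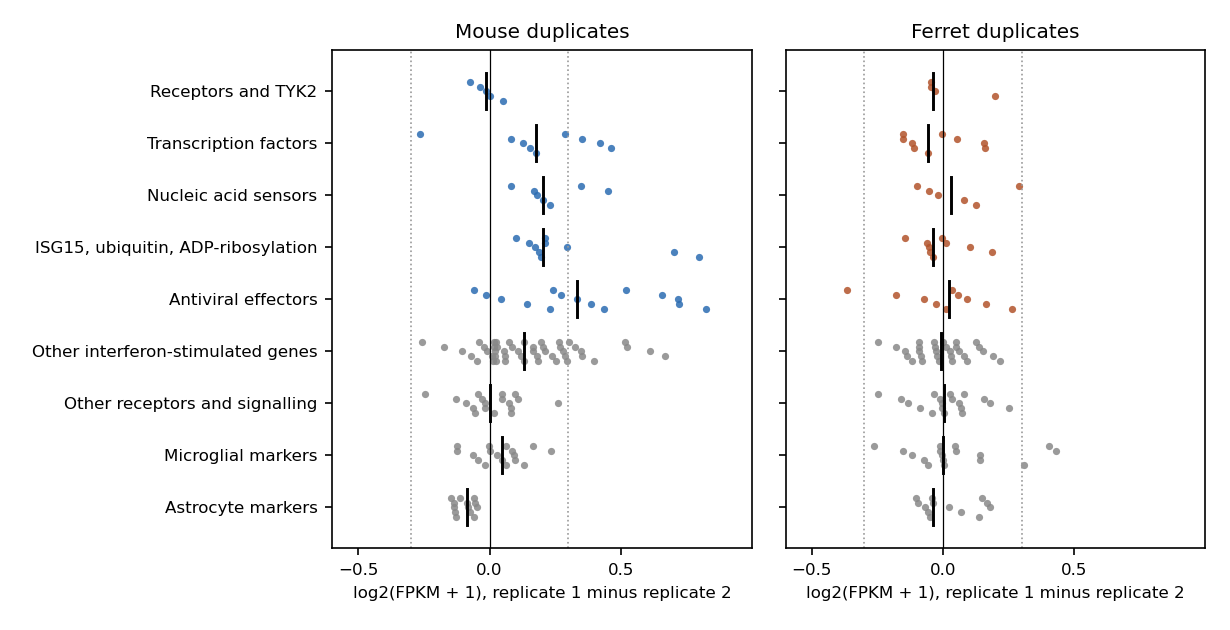
Difference between the duplicate libraries of each species, replicate 1 minus replicate 2, in log2(FPKM + 1). Each point is a gene, black bars are medians and dotted lines mark 0.3 in either direction. The mouse interferon-stimulated groups lie to the right of 0, with a median of 0.33 for effectors, while the medians of the receptors, the other signalling genes and both marker groups lie within 0.09 of 0. In ferret the group medians lie near 0, and single genes lie past the dotted lines, among them Ifit2 and 3 microglial markers.

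Other genes of the pathway were also called lower more than higher, as were all tested genes before rescaling. Of 103 further genes listed for ligands, signalling, sensing and other interferon-stimulated functions, 64 were shared and 53 were tested. Of these, 4 were called higher in ferret (7.55%, against 13.1% of all tested genes) and 20 lower (37.7%, against 30.1%), and the median difference was -0.67. After rescaling to equal sums, 6 were called higher and 13 of the 53 lower, against 19.3% and 21.7% of all tested genes. Quantile normalization gave the same counts of 6 and 13, with 2107 and 2040 of all 10204 tested genes called. Interferon transcripts themselves were listed at or near 0. Ifnb1, Ifnk and Ifne were listed at 0 in all 4 libraries, and Ifng was listed at 0.0285 FPKM in ferret replicate 1 and at 0 elsewhere. The alpha and lambda genes Ifna1, Ifna2, Ifna4, Ifnl2 and Ifnl3, matched in mouse only, were listed at 0 in both mouse libraries.

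The kinases below the receptors were present in both species. Jak1, which serves both receptor types, was at 47.2 and 48.4 FPKM in ferret and 45.6 and 42.2 FPKM in mouse, a difference of 0.12 with a 95% interval of -0.02 to 0.26 (adjusted p = 0.0899). Jak2, which is bound to IFNGR2, was at 5.82 and 5.02 FPKM in ferret and 13.5 and 13.3 FPKM in mouse and was called lower (-1.17, adjusted p = 3.01e-07), the same direction as Ifngr1. Ptpn6, a phosphatase of blood-lineage cells that restrains this signalling, was at 0.0884 and 0.0907 FPKM in ferret and 8.31 and 7.81 FPKM in mouse (-3.06). Tmem173, which encodes the DNA-sensing adaptor STING, was at 0.157 and 0.206 FPKM in ferret and 7.58 and 7.48 FPKM in mouse (-2.85). Ifitm10, of the interferon-induced transmembrane family by name, was at 1.28 and 1.59 FPKM in ferret and 80.0 and 79.0 FPKM in mouse, the most negative difference of the pathway genes (-5.05).

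Among those called higher in ferret were Phf11, Rnaseh2b and Zc3hav1. Rnaseh2b, a subunit of the RNase that clears RNA-DNA hybrids, was at 23.9 and 22.3 FPKM in ferret and 6.06 and 5.95 FPKM in mouse (1.78). Phf11 was at 8.96 and 9.21 FPKM in ferret and 0.147 and 0.135 FPKM in mouse (3.14). Mouse has several Phf11 copies under their own names, so the symbol may not compare the same gene.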

How the data were processed

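RNA-seq libraries of cultured ferret and mouse astrocytes were prepared in duplicate from poly(A)-selected RNA and sequenced as paired-end reads of 101 bases. The authors aligned reads with STAR 2.7.0f to the Ensembl genome of each species (GRCm38 for mouse) and deposited FPKM values made with Cufflinks 2.2.1, scaled by mapped fragments and exon length. The deposited files hold no read counts, and the counts listed in the study's supplement were not analysed here, so depth per library was not examined and no count test was run. The files held 14584 ferret and 55139 mouse symbols. Symbols were matched regardless of case, and where a symbol had several rows the row with the highest mean was used. Among the 13373 shared symbols, 7 had several ferret rows and 13 several mouse rows.

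Libraries were grouped by the species in their labels. Values were tested as log2(FPKM + 1) with limma 3.58.1 in R 4.3.3 (moderated with a trend, two-sided, Benjamini-Hochberg over the 10204 genes with a mean of at least 1 FPKM in one species). The procedure was tested on simulated data. With 2 libraries per species an exact permutation test of a single gene cannot go below p = 0.333. The members, gene lists and naming rule were chosen with earlier results of these data known. Every member was named, and values in every library were given for the 3 members with the largest difference in each direction, the 3 highest in each species, Ifi44, Ifi44l, the receptor chains, Stat2 and Irf9. Pathway genes were named for the 3 largest called differences in each direction, with Jak1, Jak2 and any ligand above 0, and some genes that the rule names are not reported here. Some further members were given values after these had been seen. Alternatives were the pseudocount (0.1), no filter, rescaling to equal sums, quantile normalization, the handling of several rows, no trend, a replicate block, leaving out each library, and the adjusted p alone. The share of all genes called under each setting was added after seeing the data. Gene models and coding sequences were read from GENCODE M21. Sequences of ferret genes and promoters were not analysed here.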

Additional observations from a re-analysis of the deposited data

How the results depend on the processing

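The member counts of 3 higher and 17 lower stayed within 1.5 times under the alternative pseudocount (4 and 19), without the filter (3 and 17), after rescaling to equal sums (4 and 15), after quantile normalization (4 and 13), and with other handling of several rows or no trend (3 and 17 each). Leaving out each library in turn gave 3 to 4 higher and 16 to 19 lower. With the adjusted p alone, 10 members were higher and 25 lower. The member median moved to -1.08 with a pseudocount of 0.1, was -0.61 once libraries were rescaled and -0.52 once they were quantile normalized, and ranged from -1.03 to -0.85 without each library. Of all tested genes, rescaling left 1967 called higher and 2215 lower around a median of -0.00, and quantile normalization 2107 higher and 2040 lower around 0.06.

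Rescaling ended the calls of Ifngr1 and Rnf213, and quantile normalization also those of Helz2 (-0.87) and Mx2 (-0.95), while Ifi44 was called after both (1.24 and 1.31). Without the filter, however, the adjusted p of Ifi44 from limma was 0.0876. Irf1 changed sign, to -0.031 without ferret replicate 2 and to -0.019 without mouse replicate 2, within its error, and ranged from -0.031 to 0.12 over the libraries left out. Over the 36 other tested members no sign changed in any alternative run. Ifi44l was the highest of the members' differences throughout, between 5.45 and 5.61 without each library and 8.27 with the smaller pseudocount. Pathway genes called lower fell to 13 after rescaling and 13 after quantile normalization, with 6 higher in each, and were 39, with 9 higher, by the adjusted p alone. Astrocyte markers called higher were 2 after rescaling, quantile normalization and by the adjusted p alone, and those called lower were 5 after quantile normalization. The cause of these changes was not tested.

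With the replicate number as a block, 3 members were called higher and 17 lower, the member median stayed at -0.92 and Ifi44l at 5.53, and of all tested genes 1342 were higher and 3072 lower against 1336 and 3069 without it. Deviations of same-numbered libraries from their species means correlated by 0.00995 across 10204 genes, and the block changed no call of a member. The sources used here do not say whether same-numbered libraries were prepared together. The correlation cannot show this, because a shared preparation could act on different genes in each species.

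Depth was not examined, since the deposited files hold no counts and those of the study's supplement were not analysed here. With 2 libraries per species, values near 0 such as mouse Ifi44l and ferret Mx2 have no stated counting error.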

Other observations

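Some ferret rows belong to families whose mouse member had no match, and were chosen after their values were seen. IFI27L2, of the family of Ifi27, was at 40.4 and 42.7 FPKM in the ferret libraries, which is between Ifi44l and Samd9l in the order of the ferret members. IFIT5 was at 8.03 and 7.21 FPKM and OAS1 at 5.02 and 5.66 FPKM. HERC5, the human ligase for ISG15, was at 0.507 and 0.638 FPKM, near the low ferret level of Isg15, and GBP1 was at 0.279 and 0.182 FPKM. These symbols were not shared with the mouse files, so they were not compared between species.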
